A study of Mus musculus with 6 samples.

Results

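The genes described here belong to the angiotensin and endothelin systems. They are 9 genes taken from a fixed list of names, of the 57132 gene identifiers in the count table, by name and not by a threshold on their values, although earlier results of these data were known when the list was made. In the angiotensin system they are Agt, Ace, Enpep, Agtr1a and Agtr2, and in the endothelin system Edn1, Ece1, Ednra and Ednrb. A count was found in at least 1 sample for 8 of them, and 5 (Agt, Enpep, Edn1, Ece1 and Ednra) had enough counts to be tested between genotypes.

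RNA-seq libraries were made from 3 samples of immortalized WT podocytes (line IMWT, genotype WT-Col4a3+/+) and 3 samples of immortalized AS podocytes (line IMAS, genotype AS - Col4a3-/-). Podocytes are the epithelial cells that cover the outer side of the glomerular capillaries, and AS is Alport syndrome, a hereditary disease of the collagen type IV network of the glomerular basement membrane. Both lines are labelled as coming from adult male mice of 8 weeks and received no treatment. Both carry the temperature-sensitive SV40 T antigen, were grown at 33 °C with 20 U/mL interferon gamma and were differentiated for 14 days at 37 °C according to the sample records, while the paper's methods give other values for the days and the interferon. With 1 line per genotype, genotype and line cannot be told apart. Whether the 3 samples of a line were separate cultures is not stated, and the p-values then measure only the spread between these samples, which may be technical.

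In the renin-angiotensin system, renin cuts angiotensinogen, the product of Agt, to angiotensin I. The angiotensin-converting enzyme Ace turns this peptide into angiotensin II, which acts through the AT1 receptor (in mice encoded by Agtr1a and Agtr1b) and the AT2 receptor (Agtr2), and aminopeptidase A, encoded by Enpep, removes its first amino acid. In the endothelin system, preproendothelin-1 (Edn1) is cut by furin-like enzymes and then by endothelin-converting enzyme 1 (Ece1) to endothelin-1, which binds the ETA (Ednra) and ETB (Ednrb) receptors. Both peptides constrict vessels and act on glomerular cells, and inhibition of ACE is the standard treatment in Alport syndrome. Measurements were of mRNA only, and neither peptides nor enzyme activities were measured.

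Promoter windows are shown for the 2 precursor genes and for Ece1, because Agt and Edn1 feed the 2 systems and Ece1 was the only one of the 9 genes that passed the test between genotypes. The windows are RefSeq sequence of GRCm38.p6, from 250 bases before to 50 bases after an annotated start, while the submitters' notes name mm39, so that the coordinates belong to GRCm38.p6 only. A window was found for 8 of the 9 genes (not for Agtr1a). Capitals mark 4 motifs on either strand. These are the TATA box letters TATAAA, the GC box letters GGGCGG, and the GATA-type letters TTATCT. The last is TGACTAA, an AP-1-type motif. Ece1 has 4 windows, of which those at start 1 and start 3 are printed.
Agt, chr8:124569657-124569956, minus strand: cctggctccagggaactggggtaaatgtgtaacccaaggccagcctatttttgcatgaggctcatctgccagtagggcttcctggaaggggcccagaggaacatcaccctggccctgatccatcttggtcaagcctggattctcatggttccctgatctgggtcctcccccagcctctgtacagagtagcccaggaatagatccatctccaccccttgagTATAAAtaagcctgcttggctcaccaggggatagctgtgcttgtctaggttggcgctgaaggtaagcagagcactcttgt
Edn1, chr13:42301226-42301525, plus strand: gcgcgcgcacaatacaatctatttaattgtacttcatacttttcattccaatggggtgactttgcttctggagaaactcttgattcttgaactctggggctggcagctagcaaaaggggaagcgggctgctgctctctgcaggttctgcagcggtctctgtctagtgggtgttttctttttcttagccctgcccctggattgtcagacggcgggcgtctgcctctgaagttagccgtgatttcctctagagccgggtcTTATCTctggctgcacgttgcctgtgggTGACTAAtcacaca
Ece1 start 1, chr4:137861987-137862286, plus strand: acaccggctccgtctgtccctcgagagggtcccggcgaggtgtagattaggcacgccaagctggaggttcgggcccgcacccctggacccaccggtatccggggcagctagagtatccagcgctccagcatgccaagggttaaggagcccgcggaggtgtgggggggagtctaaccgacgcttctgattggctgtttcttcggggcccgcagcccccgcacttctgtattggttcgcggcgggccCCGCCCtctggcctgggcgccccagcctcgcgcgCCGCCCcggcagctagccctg
Ece1 start 3, chr4:137913308-137913607, plus strand: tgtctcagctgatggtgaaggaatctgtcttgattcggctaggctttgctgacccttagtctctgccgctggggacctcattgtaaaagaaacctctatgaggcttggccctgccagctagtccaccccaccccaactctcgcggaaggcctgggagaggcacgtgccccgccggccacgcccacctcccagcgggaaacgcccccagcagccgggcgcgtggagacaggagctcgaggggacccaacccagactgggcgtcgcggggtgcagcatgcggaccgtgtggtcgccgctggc
In the Agt window TATAAA begins at position -30 relative to the start. Edn1 holds TTATCT from position 9 and TGACTAA from position 37. The Ece1 window at start 1 holds GGGCGG on the opposite strand at -5 and 30, and the one at start 3 holds none of the 4 motifs. Of the Ece1 windows not printed, start 2 holds GGGCGG on the opposite strand at -48 and -14, and start 4 at -138. Over all 32817 windows of the same length, 13.6% hold TATAAA, 35.6% GGGCGG, 11.2% TTATCT and 2.35% TGACTAA. These matches describe the letters in the windows only. The GC content was 54.7% for Agt, 51.3% for Edn1, 69.3% for Ece1 start 1 and 65.3% for Ece1 start 3, when compared to a median of 52.7% over all windows. It was 68.3% for Ece1 start 2 and 53% for Ece1 start 4.

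The total count per sample lay between 45417221 and 54290968. Levels are in CPM, that is, counts scaled to the size of the library after TMM normalization, and the comparison is AS over WT from edgeR's quasi-likelihood test over 16263 genes, adjusted by the Benjamini-Hochberg method over all of them. A gene was called when its adjusted p was under 0.05. Col4a3, the gene named in the genotype labels, was at 938, 1052 and 1272 CPM in WT and at 62.4, 61.2 and 82.9 CPM in AS samples. It was lower in each AS sample, in the direction of the label. Its RNA was not absent there, with 2809, 3146 and 4565 counts. WT sample 1 stood apart from the other WT samples, with a chi-square per degree of freedom of 47.2 and 49.5 against them, while WT samples 2 and 3 differed by 9.73 and AS samples by 18.6 to 22.2. Of the podocyte markers, the transcription factor gene Tcf21 had no count in any sample, and Nphs1 was at most at 0.473 CPM. Synpo was at 497 to 847 CPM and Wt1 at 1.44 to 25.8 CPM. Over all 16263 tested genes 40.1% were called, 20.4% as higher and 19.6% as lower in AS podocytes. Among the 10 podocyte markers 8 were tested, of which 2 were higher and 6 lower. Of the other marker lists, 1 of 8 tested mesangial and mural markers was higher and 2 were lower. None was higher and 2 of 2 endothelial, 1 of 4 proximal tubule, 0 of 2 distal tubule and collecting duct, 3 of 5 parietal epithelial and 1 of 4 leukocyte markers were lower. In bulk RNA, fewer cells that express a gene and less RNA per cell cannot be told apart.

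Levels of different genes were compared per kilobase of the longest annotated transcript. In WT podocytes Ece1 was highest, at 38.5 ± 0.965 CPM per kilobase (SD, n = 3), followed by Edn1 at 18.3 ± 2.72 and Enpep at 9.24 ± 4.42. Agt stood at 0.404 ± 0.248 and Ednra at 0.186 ± 0.125 CPM per kilobase (SD, n = 3 each), and Ace, Ednrb, Agtr1a and Agtr2 lay below. Both systems were therefore uneven, with the endothelin ligand and its converting enzyme well detected and their receptors near or below 1 CPM. The order was the same in AS podocytes, where Ece1 was at 23.1 ± 2.48, Edn1 at 19.5 ± 6.54 and Enpep at 8.62 ± 1.41 CPM per kilobase (SD, n = 3 each). Agt was at 0.695 ± 0.0646 and Ednra at 0.159 ± 0.0191 CPM per kilobase in AS podocytes (SD, n = 3 each). Neighbours overlapped in several places. Ece1 and Edn1 did not overlap in WT samples but did in AS samples, with 25.9, 22.1 and 21.2 CPM per kilobase for Ece1 and 26.6, 18.3 and 13.7 for Edn1. Agt and Ednra overlapped in WT and were apart in AS samples. The order was also the same when the length of all merged exons was used.

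**Figure D1:**
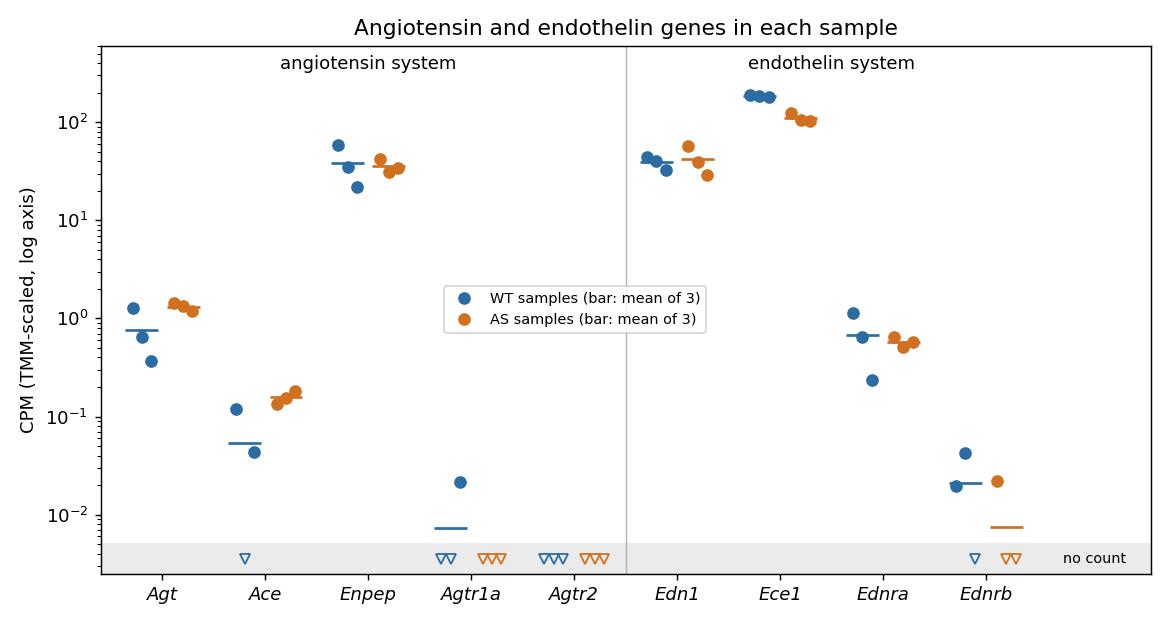
CPM of the 9 genes on a log axis, with 1 point per sample, WT in blue and AS in orange, a bar at the mean of 3 samples, and open triangles in the grey band for samples without a count. Ece1 is the only tested gene whose WT points (182 to 191 CPM) all lie apart from its AS points (102 to 125 CPM), while Agtr2 has no count in any sample.

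Of the 5 tested genes, 1 was called lower and 0 higher in AS podocytes, that is 20% when compared to 40.1% of all tested genes. The 4 others had an unadjusted p over 0.05 as well. DESeq2 and limma-voom on the same genes also called 1 of the 5.

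Among the precursors, Agt (ENSMUSG00000031980.11, chromosome 8) is the only source of angiotensin peptides. WT samples 1 to 3 were at 1.28, 0.641 and 0.368 CPM and AS samples 1 to 3 at 1.42, 1.34 and 1.18 CPM, from 17 to 69 counts per sample. WT sample 1 lay within the range of the AS samples and the other WT samples below it, so that the groups overlapped. The WT mean was 0.764 ± 0.469 CPM and the AS mean 1.31 ± 0.122 CPM (SD, n = 3 each). The log2 fold change was 0.77 (standard error, SE, 0.40, 95% interval -0.13 to 1.67), with an adjusted p of 0.157 from edgeR's quasi-likelihood test, so the threshold was not passed. The call turned on WT sample 1, since without it the log2 fold change was 1.37 with an adjusted p of 0.0109 from edgeR. Agt lies on chromosome 8, whose 616 better expressed genes (mean log2 CPM over 2) had a median log2 fold change of 0.32, with 88.3% of them higher in AS podocytes. With that median removed, the log2 fold change of Agt was 0.45. The part of the chromosome in this value was not tested.

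Edn1 (ENSMUSG00000021367.9, chromosome 13) encodes the precursor of endothelin-1. It was detected in every sample, at 44.3, 40.3 and 32.8 CPM in WT and 56.9, 39.2 and 29.3 CPM in AS samples. AS sample 1 was the highest and AS sample 3 the lowest of the 6, so the AS range enclosed the WT range. The means were 39.1 ± 5.82 CPM and 41.8 ± 14.0 CPM (SD, n = 3 each). The log2 fold change was 0.09 (SE 0.21, edgeR adjusted p = 0.758). Its 95% interval of -0.37 to 0.56 left room for a decrease or an increase of that size. The sign turned to -0.20 without AS sample 1 and to -0.02 without WT sample 3. Edn1 is best known from endothelial cells, whose defining markers were near 0 here. Pecam1 was at 0.276 CPM or less, Cdh5 at 0.0867 CPM or less, and Tie1 had no count. The 8 endothelial markers summed to between 44.7 and 52.4 CPM in WT and between 38 and 43 CPM in AS samples, of which Ehd3 alone made up 37.4 to 51.4 CPM. An antisense gene, Gm47118, overlaps exons of Edn1 and held 35 counts over the 6 samples, and whether the counting used strand is not stated.

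Among the 3 enzymes of the 9 genes, Ece1 was the only one called between genotypes. Ece1 (ENSMUSG00000057530.15, chromosome 4), the metalloprotease that releases endothelin-1 from big endothelin-1, was at 191, 184 and 182 CPM in WT samples and at 125, 106 and 102 CPM in AS samples. All AS samples lay below all WT samples, as was the case in either direction for 52.3% of the genes tested. The means were 185 ± 4.65 CPM and 111 ± 12 CPM (SD, n = 3 each), a fold of 0.599 for AS over WT. The log2 fold change was -0.74 (SE 0.08, 95% interval -0.91 to -0.57), with an adjusted p of 7.3e-05 from edgeR's quasi-likelihood test. It stayed called with each sample left out, at -0.84 to -0.68. With 3 samples a group, 0.10 is the smallest p of an exact permutation test on 1 gene. Genes of chromosome 4 had a median log2 fold change of -0.16, and with this median removed Ece1 was at -0.58 (edgeR adjusted p = 0.000386).

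The ratio of Ece1 to Edn1 within a library does not depend on the scaling between libraries. Per kilobase it was 1.91, 2.02 and 2.46 for the WT libraries and 0.973, 1.21 and 1.55 for the AS libraries. All 3 WT ratios were above all 3 AS ratios, which is a description of 6 libraries without a test.

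The 2 genes whose log2 CPM followed Ece1 most closely over the 6 samples, among 12911 tested genes with a mean CPM of at least 1, were Lrrn1 (Pearson's r = 0.9986) and Hist1h1c (r = 0.9979). With 6 samples in 2 separate groups these values describe mainly the step between WT and AS. Lrrn1, a leucine-rich repeat membrane protein gene, went from 13.4, 10.7 and 10.7 CPM in WT to 1.42, 0.817 and 0.636 CPM in AS samples. Hist1h1c, a linker histone gene, was at 159, 161 and 155 CPM in WT and 104, 91.0 and 88.5 CPM in AS samples, a log2 fold change of -0.74, which is the same as that of Ece1 to 2 decimals.

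Enpep (ENSMUSG00000028024.15, chromosome 3), the aminopeptidase that degrades angiotensin II and a gene known to be high in podocytes, was the best expressed of the 5 angiotensin genes. WT samples were at 58.6, 35.2 and 22.1 CPM, and AS samples at 42.6, 31.1 and 34.4 CPM. The 3 AS samples all fell between WT sample 1 and WT sample 3. With means of 38.6 ± 18.5 and 36.1 ± 5.91 CPM (SD, n = 3 each), the log2 fold change was -0.10 (SE 0.28, 95% interval -0.74 to 0.53, edgeR adjusted p = 0.803). The sign turned to 0.33 without WT sample 1.

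Ace (ENSMUSG00000020681.15, chromosome 11), the target of ACE inhibitors, was close to the limit of detection. The WT samples held 6, 0 and 2 counts and the AS samples 6, 8 and 10 counts, or 0.118, 0 and 0.0433 CPM against 0.133, 0.156 and 0.182 CPM. WT sample 1 and AS sample 1 had the same count and differed only by the library size. The 24 AS counts against 8 WT counts gave a CPM ratio of 2.84, with a 95% exact interval of 1.24 to 7.33 that covers counting error only. Ace was under the filter on low counts, and a fit without that filter gave a log2 fold change of 1.48 (SE 1.01, edgeR adjusted p = 0.342), so a difference beyond the spread between samples was not detectable at this depth.

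The angiotensin receptors were not detectable or nearly so. Agtr1a (ENSMUSG00000049115.16, chromosome 13), the main AT1 receptor gene, had 1 count in WT sample 3 and none in the 5 other samples. Agtr2 (ENSMUSG00000068122.11, chromosome X) had 0 counts in all 6 samples. Counting error alone leaves room for 3 counts in a line without any, which would be 0.0209 CPM for the WT line and 0.0198 CPM for the AS line. The second AT1 receptor gene, Agtr1b, had 2 counts, both in WT sample 2.

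Of the endothelin receptors, Ednra (ENSMUSG00000031616.8, chromosome 8) was the one found in every sample. Its counts were 58, 30 and 11 in WT and 29, 26 and 32 in AS samples, or 1.14, 0.641 and 0.238 CPM and 0.644, 0.506 and 0.581 CPM. The highest and the lowest sample were both WT samples. The means were 0.674 ± 0.454 and 0.577 ± 0.0691 CPM (SD, n = 3 each). The log2 fold change of -0.23 (SE 0.50, edgeR adjusted p = 0.742) had a 95% interval of -1.35 to 0.88, and it turned to 0.39 without WT sample 1. Like Agt, Ednra lies on chromosome 8, and with the chromosome median removed its value was -0.56.

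Ednrb (ENSMUSG00000022122.16, chromosome 14) had 1, 2 and 0 counts in WT and 1, 0 and 0 counts in AS samples. Of the endothelin receptor counts, Ednra therefore made up 98.3%, 93.8% and 100% in WT samples and 96.7%, 100% and 100% in AS samples. The lowest exact 95% binomial bound was 71.5%, in WT sample 3, which had 11 receptor counts. ETA was thus the prevailing receptor mRNA in both lines, at a low level. Per kilobase, Edn1 exceeded Ednra by 65.6, 107 and 233 times in WT samples and by 150, 131 and 85.3 times in AS samples. These ranges overlapped.

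**Figure D2:**
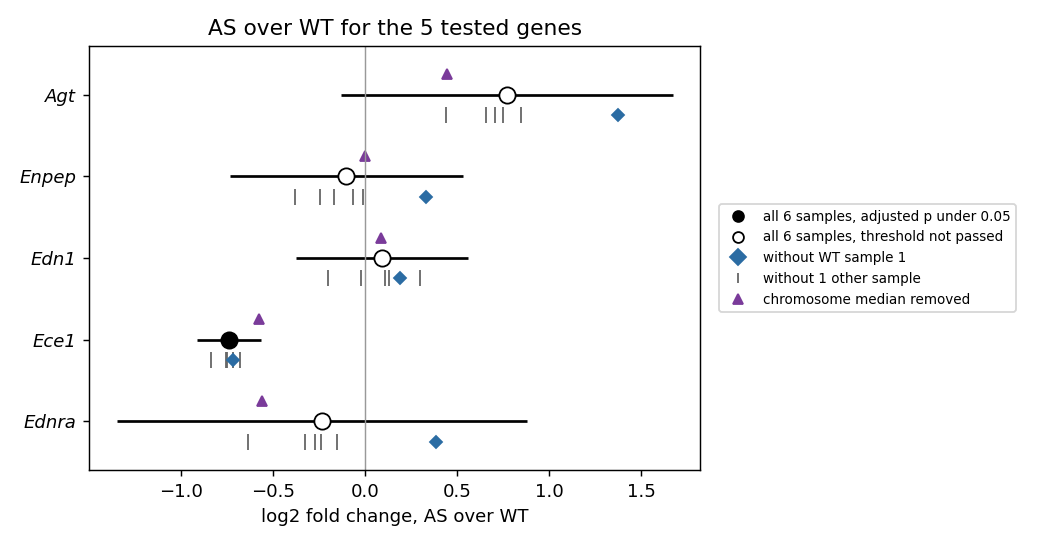
Log2 fold change of AS over WT for the 5 tested genes, with its 95% interval (circle and line), the values with 1 sample left out (ticks, and a blue diamond for WT sample 1) and the value after the chromosome median was removed (triangle). The interval of Ece1 (-0.91 to -0.57) lies wholly below 0, those of the 4 other genes include 0, and for Enpep and Ednra the diamond stands on the other side of 0.

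The 5 tested genes differed in their spread within a line. The highest WT sample exceeded the lowest by 4.8 times for Ednra, 3.48 times for Agt and 2.65 times for Enpep, but by 1.35 times for Edn1 and 1.05 times for Ece1. Over all tested genes the median of this ratio was 1.2, and 11.7% of genes exceeded 2. In the AS line the ratio was 1.27 for Ednra, 1.2 for Agt, 1.37 for Enpep, 1.94 for Edn1 and 1.22 for Ece1. All 5 tested genes were highest in WT sample 1 and lowest in WT sample 3, an order that 18.7% of tested genes had. The share of counts on mitochondrial genes was 0.882%, 1.39% and 1.68% in WT samples and 1.3%, 1.65% and 2.02% in AS samples, so that WT sample 1 was lowest there. Its part in the spread was not tested.

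**Figure D3:**
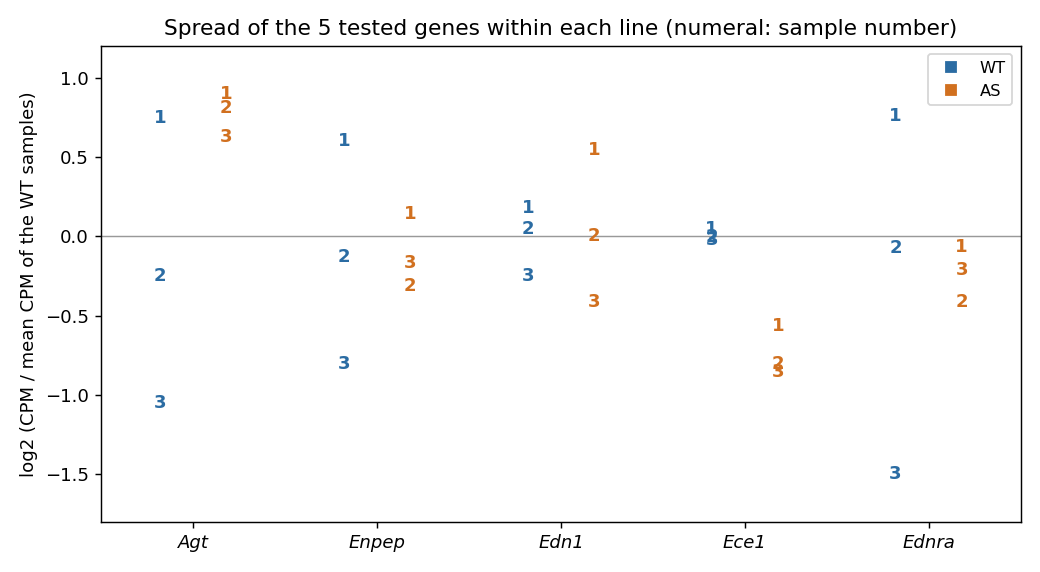
Log2 of the CPM in each sample over the mean CPM of the WT samples for the 5 tested genes, with the sample number as the symbol, WT in blue and AS in orange. Numeral 1 is the top and numeral 3 the bottom WT value for every gene, with a wide gap for Agt, Enpep and Ednra (2.65 to 4.8 times) and almost none for Ece1 (1.05 times).

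The other genes of the angiotensin pathway were taken from a list of 19, of which 18 were found by symbol (not Ren2) and 10 were tested. In AS podocytes 4 rose and 3 fell, or 70% of those tested against 40.1% of all genes, with a median log2 fold change of 0.05 against 0.01. The decreases were in membrane peptidases and in the receptor-associated protein gene. Aminopeptidase N (Anpep), which shortens angiotensin III, was at 14.8, 10.4 and 9.34 CPM in WT and 4.4, 3.11 and 4.98 CPM in AS samples. Its log2 fold change was -1.47 (SE 0.21, edgeR adjusted p = 0.000609). Neprilysin (Mme), which cuts angiotensin peptides and endothelin-1 among others, was at 45.1, 51.8 and 44.8 CPM in WT and 19.8, 18.6 and 20.1 CPM in AS samples, a log2 fold change of -1.28 (SE 0.08, edgeR adjusted p = 2.39e-06). For both genes the 3 AS values were all under the lowest WT value, while 52.3% of all tested genes had no overlap in either direction. Agtrap, whose product binds the AT1 receptor and promotes its internalization, fell by 0.39 on the log2 scale (edgeR adjusted p = 0.00201). Like Ece1, Agtrap lies on chromosome 4, where the median log2 fold change was -0.16.

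Prcp and Prep encode prolyl peptidases that can turn angiotensin II into angiotensin 1-7. They rose by 0.53 (edgeR adjusted p = 0.00134) and 0.42 (edgeR adjusted p = 0.000651) on the log2 scale. Prep lies on chromosome 10, whose 530 better expressed genes had a median log2 fold change of 0.32, with 85.3% of them higher in AS podocytes. For chromosome 7, which holds Prcp, the median was -0.01. The part of the chromosome in these values was not tested. Lnpep and Nln, the genes of insulin-regulated aminopeptidase and neurolysin, rose by 0.24 (edgeR adjusted p = 0.0261) and 0.19 (edgeR adjusted p = 0.041). Both calls were close to the threshold, and Lnpep lost it in 4 and Nln in 7 of the 13 alternatives run. The 3 other tested genes did not pass the threshold. Renin itself (Ren1) had 10, 5 and 6 counts in WT and 4, 6 and 18 counts in AS samples and was under the filter. No count was found for the angiotensin 1-7 receptor gene Mas1, the related receptor gene Mrgprd, or the chymase and cathepsin G genes Cma1 and Ctsg. The detected mRNAs of the angiotensin pathway were thus mostly those of peptidases, at 3.11 CPM or more, while renin, Ace and the receptors stood below 0.4 CPM in every sample.

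Of 7 other endothelin pathway genes 3 were tested, and all 3 were called, 1 as higher and 2 as lower, when compared to 40.1% of all tested genes. Furin, the convertase that makes big endothelin-1, was at 232, 224 and 228 CPM in WT and 186, 183 and 180 CPM in AS samples, a log2 fold change of -0.32 (SE 0.05, edgeR adjusted p = 0.000995). The 2 others were measured on few reads. Ece2, a relative of Ece1, had 4, 6 and 2 counts in WT and 12, 18 and 36 in AS samples, with a log2 fold change of 2.32 (SE 0.58, edgeR adjusted p = 0.0104). The neprilysin-like gene Mmel1 had 21, 15 and 32 counts in WT and 0, 2 and 0 in AS samples. Its CPM ratio of AS over WT was 0.0279 (95% exact interval 0.00331 to 0.105, counting error only), and it was called as lower (edgeR adjusted p = 0.00136). In CPM per kilobase Ece2 reached 0.19 at most, when compared to at least 21.2 for Ece1. Edn3 had 3 to 23 counts per sample, and no count was found for Edn2.

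Genes that couple these receptors to the cell were read from a list of 20, of which 18 were tested. In AS podocytes 6 rose and 3 fell, or 50% against 40.1% of all genes, with a median log2 fold change of 0.08. The AT1 receptor and the endothelin receptors act through Gq, phospholipase C-beta and the inositol trisphosphate receptors. Plcb3 rose by 0.49 (edgeR adjusted p = 0.00322), Itpr3 by 0.95 (edgeR adjusted p = 4e-05) and Itpr2 by 0.63 (edgeR adjusted p = 0.00107) on the log2 scale. Itpr1 fell by 0.39 (edgeR adjusted p = 0.0126). Gnaq and Gna13, which encode G protein alpha subunits, rose by 0.21 (edgeR adjusted p = 0.026) and 0.19 (edgeR adjusted p = 0.0367). Gnaq lost the threshold in 3 and Gna13 in 5 of the 13 alternatives. Gnaq and Plcb3 lie on chromosome 19, whose better expressed genes had a median log2 fold change of 0.19. For chromosome 6, which holds Itpr1 and Itpr2, the median was -0.20. The part of the chromosome in these values was not tested. The beta-arrestin gene Arrb1 fell by 0.33 (edgeR adjusted p = 0.00549).

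Regulators of G protein signalling went in both directions. Rgs5 was at 3.45, 3.82 and 2.54 CPM in WT and 10.5, 8.27 and 11.2 CPM in AS samples, a log2 fold change of 1.61 (SE 0.18, edgeR adjusted p = 0.000129). Rgs4 was at 36.4, 61.3 and 51.4 CPM in WT and 25.9, 26.2 and 19.4 CPM in AS samples, a log2 fold change of -1.06 (SE 0.18, edgeR adjusted p = 0.00141). The groups did not overlap for either gene, as was the case for 52.3% of all tested genes. Rgs2 did not pass the threshold (log2 fold change -0.21, adjusted p = 0.486, edgeR). Rgs5 also stands among the mesangial and mural markers. The 9 genes of that list summed to 5869 to 8051 CPM in WT and 6558 to 7651 CPM in AS samples, most of it Acta2. Of its 8 tested genes, Rgs5 was called as higher, Pdgfrb and Myh11 as lower, and 5 were not called. Pdgfrb was at 242, 247 and 269 CPM in WT and 115, 116 and 116 CPM in AS samples. Myh11 was at 20.5, 37.1 and 29.8 CPM in WT and 3.09, 3.74 and 5.07 CPM in AS samples. The part of these markers in the Rgs5 value was not tested.

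**Figure D4:**
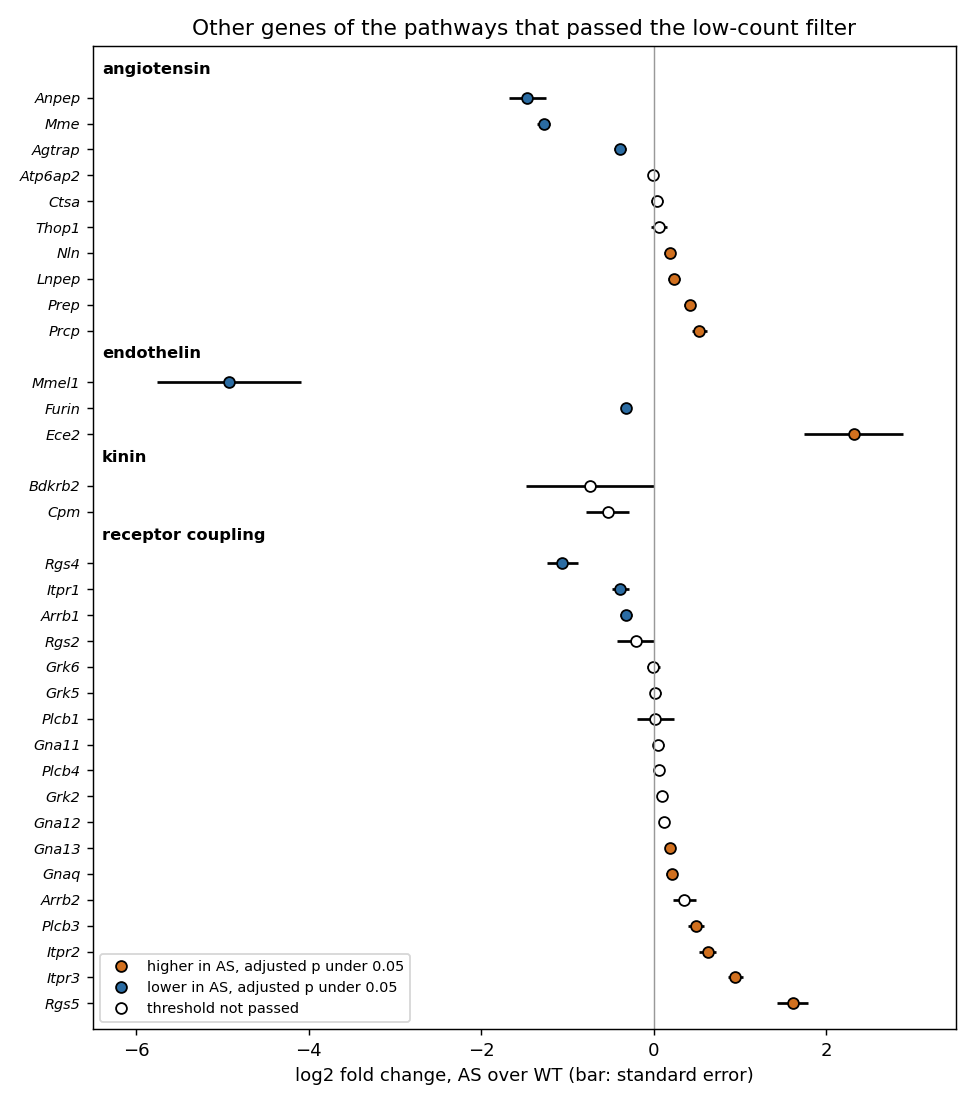
Log2 fold change of AS over WT with its standard error for the tested genes of the 4 pathway lists, filled in orange (higher) or blue (lower) where the adjusted p was under 0.05 and open otherwise. Mme (-1.28) and Anpep (-1.47) are the lowest points of the angiotensin list, Mmel1 (-4.92) and Ece2 (2.32) are the farthest from 0 and rest on few counts, and Rgs5 (1.61) and Rgs4 (-1.06) are the ends of the coupling list.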

How the data were processed

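The data are RNA-seq libraries of WT and AS podocytes, 3 samples each. The authors deposited whole-number read counts per gene and sample, without normalization. The mRNA libraries were amplified by 15 PCR cycles. The submitters' processing notes name mm39, FastQC, Trim Galore, STAR and edgeR, without versions. Which counting tool and strand setting were used is not given in the sources used here. Identifiers without their version were matched to GENCODE M21 (GRCm38) for symbols, chromosomes and transcript lengths, with 51880 of 57132 found. Identifiers without a symbol held 0.363% of counts. M21 versions differ from those in the files for most genes, so lengths are approximate.

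The test was edgeR 4.0.16 under R 4.3.3, on the genes kept by filterByExpr (minimum count 10, minimum total 15) after TMM scaling, with genotype as the only term. The study used limma (3.58.1 here), which was an alternative, as was DESeq2 1.42.0. The SE was approximated from the F statistic (log2 fold change over the root of F), and 95% intervals of log2 fold changes use it. Intervals of counts, and limits from 3 counts, reflect counting error alone, as no molecular identifiers were used and reads can be copies of 1 molecule. The total count was 45417221 to 54290968 per sample. The scripts were tested on simulated data. Alternatives were DESeq2 size factors, library size only, no low-count filter, a mean CPM of at least 1, DESeq2, limma-voom, each sample left out, a replicate block, and the chromosome median removed.

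The 9 genes and the lists (other angiotensin, other endothelin, kinin and receptor coupling genes, and cell type markers) were chosen with earlier results of these data known. Beside the 9, the rule named up to 5 called genes per list with the largest change and a mean CPM of at least 1, list genes with fewer than 3 counts, Col4a3, and the 2 genes most like each called gene. Ece2, Mmel1, Lnpep, Nln, Ren1, Edn3, Gnaq, Gna13, Itpr1, Arrb1, Rgs2, the markers and the kinin genes were named outside it, after their values were seen. Some list genes are not reported here.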

Additional observations from a re-analysis of the deposited data

How the results depend on the processing

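Ece1 kept its direction and its call in every alternative run, with log2 fold changes of -0.84 to -0.68 when 1 sample was left out. The number of the 9 genes called lay between 1 and 2 with 1 sample left out, and it was 2 without WT sample 1, which brought Agt to 1.37 (adjusted p = 0.0109, edgeR). Left-out samples gave 0.44 to 1.37 for Agt, -0.38 to 0.33 for Enpep, -0.20 to 0.30 for Edn1 and -0.63 to 0.39 for Ednra. Edn1 turned to -0.02 without WT sample 3 and to -0.20 without AS sample 1. Enpep turned to 0.33 and Ednra to 0.39 without WT sample 1, and Ednra was at 0.0001 with limma-voom. The called endothelin genes fell from 3 to 1 under the stricter filter (mean CPM at or above 1), which leaves only Furin of the 3. Called kinin genes went from 0 to 1 without the low-count filter and with the replicate block. Of 310 values for 24 other named genes none changed direction and 288 kept their call. The 310 do not include values with the chromosome median removed. Calls were lost in 20, of which 4 were for Lnpep, 7 for Nln, 3 for Gnaq, 5 for Gna13 and 1 for Ece2 (1.86, adjusted p = 0.0505, edgeR, without AS sample 3), and Cpm gained one in 2. The causes were not tested. All genes called ranged from 5120 (without AS sample 3) to 7066 (replicate block).

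The deviations of samples with the same number correlated at 0.147, 0.0939 and 0.0526, and those of samples with different numbers at -0.13 to 0.0571. Whether samples with the same number share more than the number is not stated, and these values do not settle it. WT samples 1 and 2 correlated best with the AS sample of the same number, and WT sample 3 with AS sample 2. With the replicate block Agt was at 0.90 (adjusted p = 0.0666, edgeR), Ece1 at -0.74, Edn1 at 0.05, Ednra at -0.06 and Enpep at -0.01, and 1 of the 9 genes was called. Depth limits Ace, Ednrb, Agtr1a and Agtr2, where 3 counts correspond to 0.0553 to 0.0661 CPM in 1 sample.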

Other observations

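ACE also degrades bradykinin, so the 7 genes of the kinin list were read from the same libraries. Of these, 2 were tested and 0 were called by edgeR, DESeq2 or limma-voom, with 0 at an unadjusted p under 0.05 in edgeR. Carboxypeptidase M (Cpm), which removes the last arginine of kinins, was the one with a substantial level, at 93.7, 50.2 and 49.8 CPM in WT and 49.5, 32.7 and 51.9 CPM in AS samples. AS over WT was -0.53 on the log2 scale (SE 0.25, edgeR adjusted p = 0.121), and as for Enpep, Agt and Ednra the highest sample of the WT line was WT sample 1. It passed the threshold without the low-count filter (adjusted p = 6.59e-05, edgeR) and with the replicate block (adjusted p = 0.0288, edgeR). The B2 receptor gene Bdkrb2 had 14, 15 and 7 counts in WT and 15, 1 and 6 counts in AS samples. The B1 receptor gene Bdkrb1 had 2 counts in all, the kininogen genes Kng1 and Kng2 had at most 9 counts in a sample, and the tissue kallikrein gene Klk1 had none.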
